A study of Mus musculus and Homo sapiens with 67 samples.

Results

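Tazemetostat, an inhibitor of the histone methyltransferase EZH2, was compared in 2 human pancreatic cancer cell lines, PSN1 and SW1990, by asking of each gene whether the change from control was the same in both lines. The genes compared were those joined by gene ID that reached a mean of 1 FPKM (fragments per kilobase of transcript, scaled to the mapped total) in any of the 4 arms, and 13557 of the 60564 genes in the human tables did so. The series measured RNA by sequencing in cultured cells and in mouse tumours under control, tazemetostat, the RAS inhibitor RMC-6236 or their combination. The arms used first were PSN1 control (labelled Con, given DMSO per the design text), PSN1 tazemetostat, SW1990 control and SW1990 tazemetostat, with 3 libraries each. The labels give no dose and no time, each arm is a culture of 1 established line, and nothing says that the 3 libraries of an arm came from separate cultures, so the p-values measure only the spread between these libraries, which may be technical. A further 12 libraries of the same lines, RMC-6236 alone and RMC-6236 with tazemetostat, served to see whether the differences appeared again in other libraries.

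EZH2 is the catalytic subunit of polycomb repressive complex PRC2, which places methyl groups on lysine 27 of histone H3 and keeps many developmental, immune and signalling genes silent. The mark is read by the companion complex PRC1. In epithelial tumours, loss of the mark is known to let silenced genes come on, and the set of genes that respond depends on which genes carried the mark and on which activators the cell holds.

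The libraries of each line carried the markers of epithelial cells. All 7 epithelial markers, among them keratins and EPCAM, were at 1 FPKM or more in every arm. The lines were not alike in level, with CDH1 at 1.37 to 2.41 FPKM in PSN1 and 44.2 to 49.0 FPKM in SW1990. Among leukocyte markers, CD3E was at 0 in all 12 libraries and PTPRC did not exceed 0.00428 FPKM, while LAPTM5 stood at 58.1 to 83.3 FPKM in PSN1 and at 36.4 to 47.4 FPKM in SW1990. In PSN1, CD14 of that list was at 7.46 to 9.46 FPKM and the endothelial marker KDR at 4.63 to 5.53 FPKM. In SW1990 they reached at most 0.482 and 0.00618 FPKM. The sum of the 6 leukocyte markers went from 90.04 to 92.7 FPKM in PSN1 control to 66.3 to 67.6 FPKM under tazemetostat, and that of the epithelial markers from 611 to 623 FPKM to 546 to 571 FPKM. Some fibroblast genes were present in PSN1, LUM at 12.2 to 26.3 FPKM and COL1A1 at 8.23 to 8.97 FPKM, and the sum of the 6 fibroblast markers was 25.1 to 25.6 FPKM in control and 35.5 to 37.3 FPKM under tazemetostat. That rise lay mostly in LUM, while COL3A1, a fibrillar collagen, went from 3.09, 3.72 and 3.35 to 1.58, 1.34 and 1.601 FPKM. The share of FPKM held by mitochondrially encoded genes ran from 22.67% to 23.88% in PSN1 and from 26.22% to 28.04% in SW1990. Their part in the results was not tested beyond leaving them out of the scaling.

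Tazemetostat changed a like number of genes in each line, with effects that often differed between the lines. In PSN1, 3045 genes rose (22.5% of those tested) and 2727 fell (20.1%), by limma with a Benjamini-Hochberg adjusted p under 0.05. In SW1990, 3632 rose (26.8%) and 2222 fell (16.4%). Counts within the gene lists below are to be read against these shares, and some lie near them. Most changes were small. At 2-fold or more on the log2(FPKM + 1) scale, on which low genes are understated, 230 genes rose and 10 fell in PSN1, against 76 and 16 in SW1990. Effects below are in these log2 units from 3 libraries an arm, and where no standard error (±) is printed, its median over all genes was 0.052 within a line and 0.073 for the difference. The difference of the effects was called for 5168 genes. It was more positive in PSN1 for 2372 (17.5%) and more positive in SW1990 for 2796 (20.6%), and 204 and 63 of these differed by at least 1 log2 unit. Across the 13557 genes, which are not independent replicates, the effects in the lines had a Spearman's rho of 0.267, and over the 5327 genes at 5 FPKM or more in all 4 arms it was 0.211.

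Genes were then placed in classes by these tests. Of all genes, 1374 rose in both lines and 833 fell in both, 10.1% and 6.14% of those tested. Going up in both did not mean going up alike, since 587 of the 1374 had a called difference, 376 of them with the larger rise in PSN1. Opposite changes were called for 313 genes that rose in PSN1 and fell in SW1990 (2.31%) and for 465 with the reverse (3.43%). Changes called in 1 line, not called in the other and with a called difference are termed line-specific here. There were 908 PSN1-specific rises, 811 PSN1-specific falls, 1094 SW1990-specific rises and 621 SW1990-specific falls. With libraries rescaled by the median ratio these were 980, 722, 859 and 798, so the order of the lines turned for line-specific rises and falls. The opposite classes then held 380 and 383 genes, which kept their order but were nearly equal. Another 2222 genes were called in 1 line without a called difference and are not assigned to a line.

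**Figure D1:**
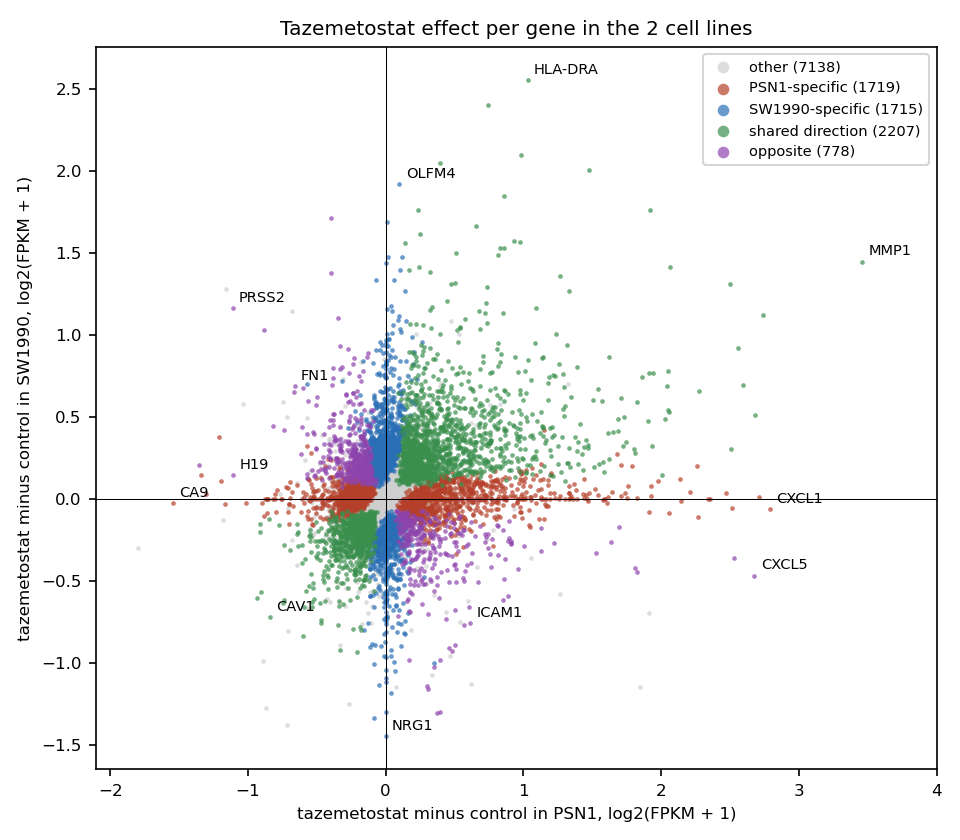
Each point is a gene, placed by its tazemetostat effect in PSN1 (horizontal) and in SW1990 (vertical), both as the difference in mean log2(FPKM + 1) from control over 3 libraries an arm. Green points changed in the same direction in both lines, purple points in opposite directions, and red and blue points in PSN1 or SW1990 alone with a called difference. CXCL1 and NRG1 lie along the axes, while MMP1 and HLA-DRA lie in the quadrant of shared rises.

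Of 12 PRC2 genes tested, 2 rose and 3 fell in PSN1 while 4 rose and 1 fell in SW1990. EZH2, the drug's target, stood at 15.8, 16.05 and 15.4 FPKM in PSN1 control and 14.4, 15.3 and 16.3 FPKM under tazemetostat, arms that overlapped. In SW1990 it was 8.995, 9.59 and 9.68 FPKM in control and 13.4, 12.2 and 13.1 FPKM under tazemetostat. The SW1990 rise of 0.42 ± 0.05 log2 units (SE) was called and the PSN1 change of -0.04 ± 0.05 was not, with a called difference of -0.46 ± 0.07 (limma, adjusted p = 1.6e-04). In the RMC-6236 libraries the SW1990 rise was absent, with an EZH2 effect of 0.0005 ± 0.065 that was not called. The PSN1 effect there was a called fall of 0.32 ± 0.065, and the difference was -0.32 ± 0.09, also called. The drug acts on the enzyme's activity, so its transcript does not check the treatment. SUZ12, a core PRC2 subunit, fell by 0.32 in PSN1 and changed by 0.15 ± 0.06 in SW1990, the latter not called. Its called difference of -0.47 ± 0.08 was -0.10 ± 0.11 in the RMC-6236 libraries, not called. EPOP, a PRC2 accessory protein, rose in both lines, by 0.52 and 0.15. Opposite calls within the list were made for PHF19 alone, whose PSN1 effect of 0.10 lost its call in 9 alternatives. Of these, 5 left out a PSN1 library (control replicate 1, 2 or 3, or tazemetostat replicate 2 or 3). Another 2 left out SW1990 tazemetostat replicate 2 or 3. The PHF19 difference of 0.30 ± 0.05 turned to -0.17 ± 0.06 in the RMC-6236 libraries, and both were called.

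Some PRC1 genes rose in both lines, and the called differences were all more positive in SW1990. BMI1, a PRC1 ring-finger subunit, went from 24.8, 24.7 and 24.5 to 34.3, 35.4 and 36.4 FPKM in PSN1. In SW1990 it went from 8.598, 10.1 and 10.7 to 27.03, 25.1 and 25.3 FPKM. The arms did not overlap in either line, and the difference (PSN1 minus SW1990) was -0.81 ± 0.08 log2 units (adjusted p = 6.5e-06). CBX2, a subunit that reads the histone mark, rose by 0.30 in PSN1 and 0.83 in SW1990. Its relative CBX8 rose by 0.44 in SW1990 and was at -0.01 ± 0.05 in PSN1, not called. Of 19 PRC1 genes, 6 rose and 3 fell in PSN1, 10 rose and 1 fell in SW1990, with 7 called differences.

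MHC class II genes rose in both lines. These genes encode the molecules that present peptides to helper T cells, and their loader and chaperone proteins. Of 15 tested, 13 rose in PSN1 and 11 in SW1990, 11 of them in both, with median effects of 0.792 and 0.253 log2 units against -0.002 and 0.032 over all genes. With a pseudocount of 0.1 the medians were 0.932 and 1.05, so the order of the lines turned. Called differences were more positive in PSN1 for 7 members and in SW1990 for 2, HLA-DRA and HLA-DRB1. HLA-DRA, the invariant alpha chain of HLA-DR, was 52.5, 53.9 and 52.4 FPKM in PSN1 control and 106, 113 and 108 FPKM under tazemetostat. In SW1990 it rose from 2.01, 2.99 and 2.34 to 20.1, 18.1 and 19.3 FPKM. Unlike most members, its rise was larger in SW1990, with a difference of -1.53 ± 0.11 log2 units (adjusted p = 7.5e-07). HLA-DRB1, a beta chain, had a like difference of -1.66 ± 0.09. HLA-DRB5 rose by 1.92 and 1.76, with no called difference (0.15 ± 0.16). DRB genes are near copies, so how reads were shared between HLA-DRB1 and HLA-DRB5 is uncertain.

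The regulator of the group stood at a low level in SW1990. CIITA, the class II transactivator, and CD74, the invariant chain, are named here after their values were seen. CIITA went from 2.74, 2.96 and 2.92 to 3.22, 3.201 and 3.46 FPKM in PSN1 and from 0.0477, 0.0615 and 0.0579 to 0.281, 0.257 and 0.237 FPKM in SW1990. It passed the test in both, but the PSN1 effect of 0.15 was 0.12 without PSN1 control replicate 1 and again without PSN1 tazemetostat replicate 3, and was then not called (adjusted p = 0.0707 and 0.0716), nor was it with a pseudocount of 0.1 (adjusted p = 0.115). CD74 rose by 0.63 in PSN1 and by 0.26 in SW1990.

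MMP1, NEO1, CALB2, VCAN and IGFBP2 also rose in both lines. MMP1, interstitial collagenase, was 20.6, 20.9 and 20.2 FPKM in PSN1 control and 228, 236 and 244 FPKM under tazemetostat. In SW1990 the values were 10.5, 10.5 and 9.08 FPKM in control and 28.2, 29.95 and 29.1 FPKM under tazemetostat. Every treated library lay above every control library of its line, and the rise was 2.01 ± 0.07 log2 units larger in PSN1 (adjusted p = 2.5e-10). NEO1, the netrin and repulsive guidance receptor neogenin, rose from 0.3299, 0.261 and 0.367 to 6.09, 6.57 and 6.71 FPKM in PSN1 and by 1.31 log2 units in SW1990. CALB2, the calcium-binding protein calretinin, went the other way in size, 1.47 in PSN1 and 2.01 in SW1990. VCAN, the matrix proteoglycan versican, rose by 2.06 and 1.42 from under 0.5 FPKM in every control library of both lines, and its called difference of 0.65 was 0.13 and not called with a pseudocount of 0.1 (adjusted p = 0.453). IGFBP2, an insulin-like growth factor binding protein, rose by 1.26 and 1.36, a difference of -0.10 ± 0.08 that was not called.

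Shared falls were smaller than shared rises, with no gene of the 833 at 2-fold in either line. CAV1, the caveolae coat protein, fell from 62.4, 63.2 and 61.4 to 34.4, 35.2 and 33.5 FPKM in PSN1. In SW1990 it fell from 190, 206 and 210 to 121, 122 and 123 FPKM. The difference between these falls, -0.12 ± 0.05, was not called (adjusted p = 0.0733). TAGLN, an actin-binding protein, fell by 0.74 and 0.62, PDGFC, a platelet-derived growth factor, by 0.75 and 0.64, and the keratin KRT81 by 0.60 and 0.83. DUSP1, a phosphatase of MAP kinases, fell by 0.94 in PSN1 and 0.61 in SW1990, with a called difference. PTHLH, parathyroid hormone-like hormone, fell by 0.91 and 0.57, and its called difference of -0.34 ± 0.10 was not called with a pseudocount of 0.1 (adjusted p = 0.179).

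Targets of growth pathways fell in both lines more often than they rose. Of 20 YAP/TEAD targets, 12 fell and 6 rose in PSN1 and 10 fell and 1 rose in SW1990, with medians of -0.249 and -0.152. F3, tissue factor, fell from 138, 141 and 140 to 93.5, 92.7 and 93.4 FPKM in PSN1 and from 136, 148 and 149 to 97.4, 98.3 and 96.5 FPKM in SW1990. These falls did not differ by test (-0.02 ± 0.04). NUAK2, a kinase of the same list, instead rose by 0.46 in PSN1 and fell by 0.91 in SW1990. Of 21 genes of RAS-MAPK output, 10 fell and 5 rose in PSN1 and 12 fell and 2 rose in SW1990. HBEGF, a ligand of the EGF receptor, fell by 0.54 and 0.63, while the immediate-early genes IER3 and EGR1 moved apart. IER3 rose by 0.56 in PSN1 and fell by 0.48 in SW1990, and EGR1 fell by 0.51 in PSN1 and rose by 0.30 in SW1990.

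Interferon-stimulated genes, which carry out antiviral defence, rose in both lines and further in PSN1. Of 40 tested, 34 rose and 0 fell in PSN1, against 17 and 2 in SW1990, and 15 rose in both. The difference was more positive in PSN1 for 29 and in SW1990 for 1, and the medians were 0.601 and 0.119. RSAD2, the antiviral enzyme viperin, was 1.24, 1.06 and 1.503 FPKM in PSN1 control and 6.03, 6.79 and 6.67 FPKM under tazemetostat. In SW1990 it was 0.175, 0.2195 and 0.231 FPKM in control and 0.794, 0.758 and 0.584 FPKM under tazemetostat. The arms were apart in each line, and the PSN1 rise was larger by 1.23 ± 0.10 (adjusted p = 1.0e-06). MX1, an antiviral GTPase, rose by 1.16 and 0.34. The class I molecule HLA-B rose from 49.7, 47.2 and 48.3 to 115, 113 and 117 FPKM in PSN1 and by 1.01 in SW1990. Of 19 genes of the MHC class I pathway, 12 rose and 1 fell in PSN1, and 7 rose and 2 fell in SW1990, with 3 opposite calls. The called differences were 8 more positive in PSN1 and 3 in SW1990. The list's medians were 0.208 and 0.03, against -0.002 and 0.032 over all genes, so the SW1990 median was near that of all genes. Reads of HLA-B can be shared with other class I genes.

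Of 6 inhibitors of cyclin-dependent kinases tested, 4 rose and 1 fell in PSN1 and 3 rose in SW1990. The one that fell, CDKN2B, went from 12.9, 12.4 and 12.1 to 9.76, 10.04 and 10.7 FPKM in PSN1. It was listed at 0 in all 6 SW1990 libraries, so its called difference of -0.27 ± 0.06 is the PSN1 effect alone. With a pseudocount of 0.1 that difference was not called (limma, adjusted p = 0.0557). CDKN1A, the p21 inhibitor of cyclin-dependent kinases, was 2.99, 3.25 and 2.98 FPKM in PSN1 control and 9.999, 9.79 and 9.37 FPKM under tazemetostat. In SW1990 it was 16.4, 16.002 and 16.1 FPKM in control and 20.5, 21.5 and 20.3 FPKM under tazemetostat. CDKN1C, the imprinted p57 inhibitor, rose by 1.21 and 0.38. Both differences were called, at 1.05 ± 0.05 and 0.83 ± 0.11. Genes of S to M phase split with the line: of 33, 17 fell and 2 rose in PSN1, while 5 fell and 12 rose in SW1990, and 19 differences were more positive in SW1990 against 2 in PSN1. The list's median in SW1990, 0.029, turned to -0.004 when libraries were rescaled by the median ratio. MCM6, a subunit of the replicative helicase, fell by 0.22 in PSN1 and rose by 0.41 in SW1990, and E2F1, a transcription factor of S-phase entry, fell by 0.23 and rose by 0.26.

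Some WNT and squamous genes also rose in both lines. AXIN2, a feedback inhibitor of WNT signalling, went from 0.153, 0.0991 and 0.103 to 1.61, 1.98 and 1.84 FPKM in PSN1 and stayed under 0.5 FPKM in SW1990, where its effect was 0.31. The ligand WNT4 rose by 1.09 and 0.29. Of 17 WNT genes, 12 rose in PSN1 and 11 in SW1990, 9 in both. PI3, the protease inhibitor elafin, rose from 17.3, 16.5 and 13.9 to 109, 115 and 112 FPKM in PSN1 and from 81.5, 75.5 and 77.6 to 169, 175 and 170 FPKM in SW1990. S100A9, a calprotectin subunit, rose by 2.68 in PSN1 and 0.52 in SW1990, a difference of 2.16. SERPINB2, a plasminogen activator inhibitor, parted by line, with a rise of 1.82 in PSN1 and a fall of 0.45 in SW1990. Over the 31 squamous and basal genes, 13 rose and 2 fell in PSN1, and 15 rose and 13 fell in SW1990. Of the 31, 19 were below 1 FPKM in all PSN1 libraries and 1 was in all SW1990 libraries. Few members could therefore show a fall in PSN1, and the counts of falls are not comparable between the lines.

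Genes of cholesterol and fatty acid synthesis moved in opposite directions in the lines. Of the 31 genes, 22 rose and 3 fell in PSN1, while 1 rose and 26 fell in SW1990. Opposite calls were made for 19, and the difference was called for 30, 29 of them more positive in PSN1. The medians were 0.212 in PSN1 and -0.372 in SW1990, with a median difference of 0.559 log2 units against -0.033 over all genes. INSIG1, which retains the sterol sensor in the endoplasmic reticulum, was 11.6, 11.8 and 11.7 FPKM in PSN1 control and 20.1, 19.98 and 20.8 FPKM under tazemetostat. In SW1990 it was 13.1, 13.1 and 13.7 FPKM in control and 10.9, 10.5 and 10.5 FPKM under tazemetostat. The arms did not overlap in either line, and the difference was 1.04 ± 0.04 (adjusted p = 2.1e-09).

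The same split was seen in enzymes of the pathway. HMGCS1, the synthase that feeds the pathway, rose by 0.37 in PSN1 and fell by 0.52 in SW1990. SQLE, the epoxidase that commits squalene to sterols, went from 27.1, 25.3 and 26.2 to 29.6, 29.1 and 30.3 FPKM in PSN1. In SW1990 it went from 44.2, 47.7 and 46.3 to 28.6, 28.1 and 27.7 FPKM. It rose by 0.17 in PSN1 and fell by 0.69 in SW1990.

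**Figure D2:**
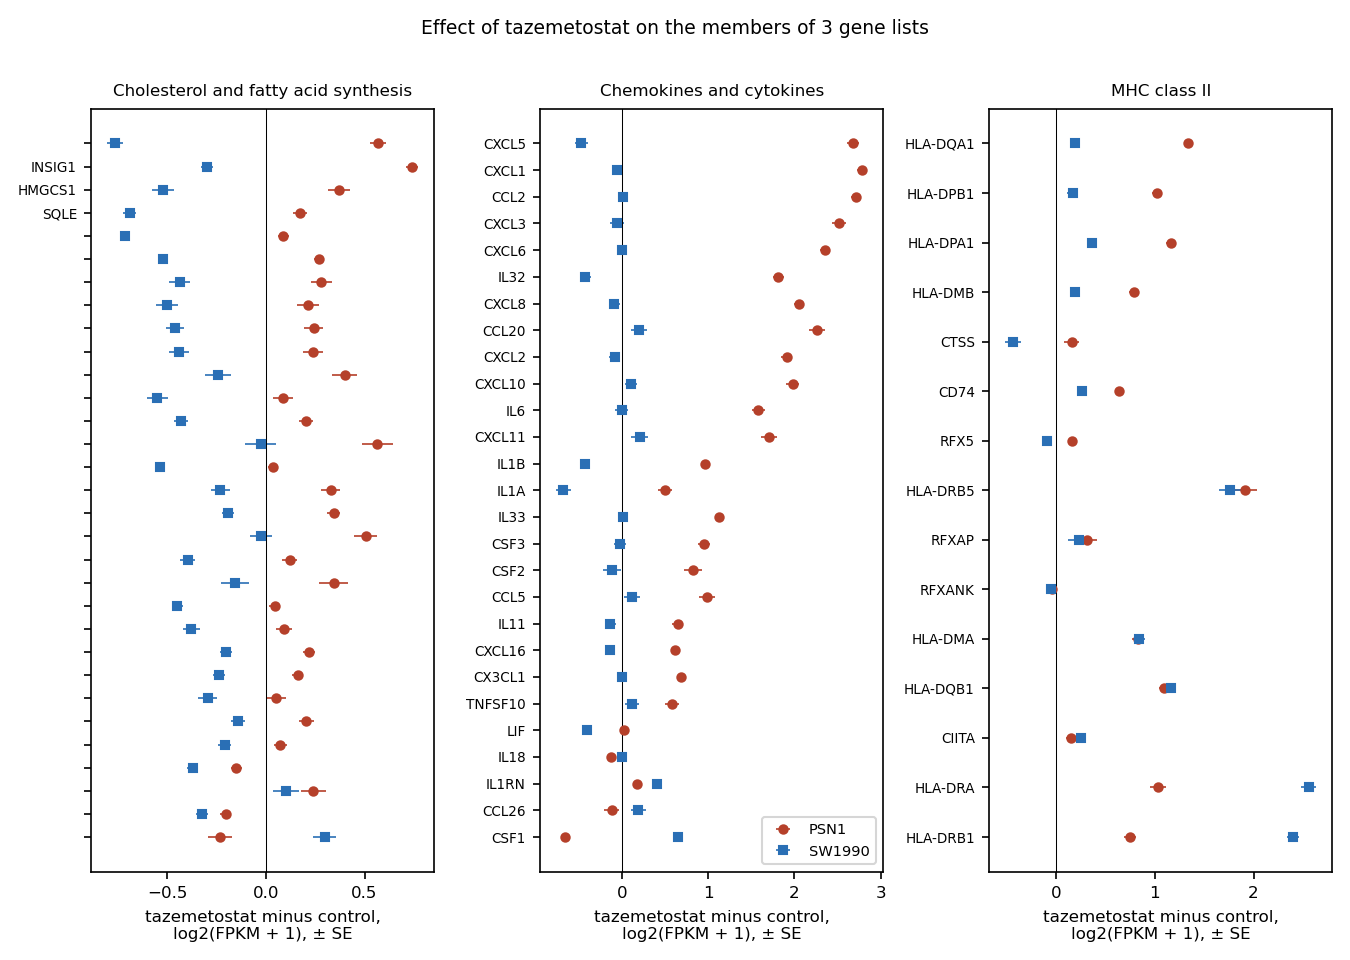
For each tested member of 3 gene lists, the tazemetostat effect with its standard error is shown in PSN1 (red circles) and SW1990 (blue squares), in log2(FPKM + 1), ordered by the difference between the lines, with gene names in the first panel only for members named in the text. Cholesterol genes lie mostly on opposite sides of 0, most chemokines and cytokines rise in PSN1, and HLA-DRA and HLA-DRB1 rise further in SW1990.

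Opposite calls were also made for ICAM1, PTX3, PKP2, PRDM8 and FST, which rose in PSN1 and fell in SW1990. ICAM1, the leukocyte adhesion molecule, was 32.8, 33.3 and 31.6 FPKM in PSN1 control and 49.2, 51.1 and 50.8 FPKM under tazemetostat. In SW1990 it was 5.17, 4.96 and 4.55 FPKM in control and 2.48, 2.39 and 2.57 FPKM under tazemetostat. PTX3, a secreted pentraxin of innate immunity, rose by 0.60 in PSN1 and fell by 0.66 in SW1990. The desmosome protein PKP2 rose by 0.89 and fell by 0.59, from control means of 0.863 FPKM in PSN1 and 18.5 FPKM in SW1990. PRDM8, a PR-domain nuclear protein, rose by 0.51 and fell by 0.51. FST, the activin antagonist follistatin, fell from 3.35, 3.67 and 3.69 to 0.838, 0.875 and 0.8502 FPKM in SW1990 and rose by 0.39 in PSN1, where it stayed under 1 FPKM.

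In the reverse sense, FN1, fibronectin, fell from 114, 113 and 109 to 69.2, 70.5 and 71.8 FPKM in PSN1. In SW1990 it rose from 7.49, 7.95 and 7.53 to 12.9, 12.9 and 13.05 FPKM. The libraries of each arm lay close together, and the effects differed by -1.35 ± 0.04 (adjusted p = 1.6e-10). CSF1, the macrophage growth factor, fell by 0.66 in PSN1 and rose by 0.65 in SW1990. EDIL3, a secreted integrin ligand, fell by 0.60 and rose by 0.68, and AKR1B10, an aldo-keto reductase, fell by 0.88 and rose by 1.03. PRSS2, a trypsinogen, fell from 60.9, 62.6 and 62.9 to 29.2, 26.9 and 28.8 FPKM in PSN1 and rose in SW1990 from 0, 0.0343 and 0 to 1.16, 1.22 and 1.44 FPKM. Trypsinogen genes are near copies, so the PRSS2 reads are uncertain.

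**Figure D3:**
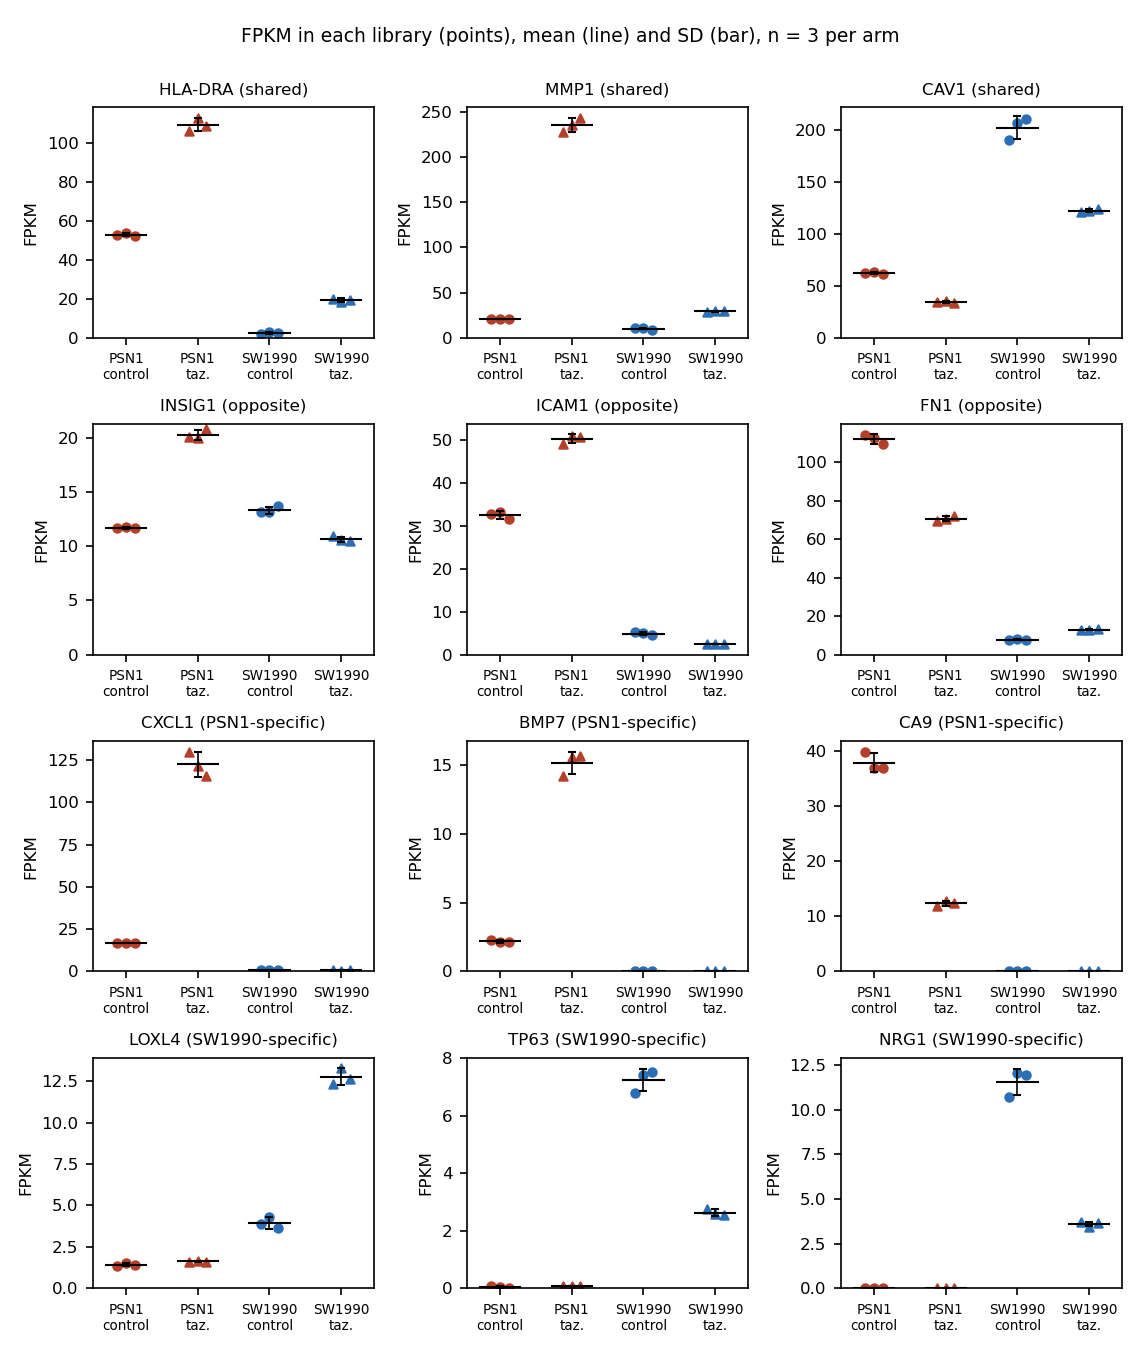
FPKM of 12 genes in each library of the 4 arms (points; circles control, triangles tazemetostat; red PSN1, blue SW1990), with the mean as a line and the SD as a bar (n = 3). Each vertical axis starts at 0 and has its own range. INSIG1 and ICAM1 rise in PSN1 and fall in SW1990, FN1 does the reverse, and TP63 and NRG1 are near 0 in PSN1.

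Chemokine and cytokine genes rose in PSN1 and seldom in SW1990. Of 27 chemokine and cytokine genes tested, 23 rose and 2 fell in PSN1, while 2 rose and 6 fell in SW1990, with medians of 0.988 and -0.002. The difference was called for 26 of 27, 23 of them more positive in PSN1. A gene could pass the expression floor through the PSN1 tazemetostat arm alone, and 13 of the 27 were below 1 FPKM in all 6 SW1990 libraries, so these counts and medians describe the tested genes only. CXCL1, a neutrophil attractant, was 17.02, 16.5 and 16.9 FPKM in PSN1 control and 130, 121 and 116 FPKM under tazemetostat. In SW1990 it was 0.8301, 0.751 and 0.793 FPKM in control and 0.806, 0.552 and 0.806 FPKM under tazemetostat, arms that overlapped. Its difference was 2.85 ± 0.08 log2 units (adjusted p = 1.1e-10). CXCL3 and CXCL6, of the same family, rose by 2.52 and 2.36 in PSN1, and CXCL6 was at 0 in all 6 SW1990 libraries. CCL2, which attracts monocytes, rose from 0.991, 0.8897 and 0.903 to 10.8, 11.96 and 12.1 FPKM in PSN1 and did not exceed 0.0183 FPKM in SW1990. CXCL5 was opposite, rising from 3.11, 2.44 and 2.75 to 23.6, 24.4 and 21.2 FPKM in PSN1 and falling from 10.8, 12.4 and 12.3 to 8.46, 7.89 and 8.41 FPKM in SW1990. CSF1 was the member with the reverse pattern.

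Other rises in PSN1 were those of BMP7, LYZ, VGF, EHF and CRABP1. BMP7, a bone morphogenetic protein, rose from 2.3003, 2.15 and 2.11 to 14.2, 15.6 and 15.6 FPKM and did not exceed 0.00422 FPKM in SW1990. LYZ, lysozyme, rose from 2.77, 2.58 and 2.52 to 18.2, 19.4 and 19.7 FPKM and did not exceed 0.05796 FPKM in SW1990. VGF, a neuroendocrine secretory protein, differed in being expressed in both lines. It rose from 4.33, 4.197 and 3.85 to 23.3, 23.7 and 24.2 FPKM in PSN1, and SW1990 gave 3.24, 3.41 and 3.14 FPKM in control and 3.28, 3.19 and 2.46 FPKM under tazemetostat, an effect of -0.11 ± 0.07 that was not called. EHF, an epithelial ETS transcription factor, rose from 0.897, 0.813 and 0.686 to 3.51, 3.12 and 3.02 FPKM in PSN1. It was at 29.2, 34.998 and 33.9 FPKM in SW1990 control, with an effect of 0.01 there. CRABP1, a retinoic acid binding protein, was listed at 0 in PSN1 control and at 1.98, 1.66 and 1.66 FPKM under tazemetostat, and its list of prostaglandin, alcohol and retinoid metabolism had 16 of 22 members higher in PSN1 and 16 in SW1990, 12 of them in both.

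The PSN1-specific falls named here were CA9, FOS, FOSB, SEMA7A, HYAL4 and CASC19. CA9, the hypoxia-inducible carbonic anhydrase, fell from 39.9, 36.9 and 36.9 to 11.9, 12.8 and 12.4 FPKM in PSN1 and did not exceed 0.07501 FPKM in SW1990. Of the 26 genes of its glycolysis and hypoxia list, 13 fell and 2 rose in PSN1, and 10 fell and 5 rose in SW1990. FOS and FOSB encode subunits of the AP-1 transcription factor. FOS fell from 81.2, 81.7 and 79.4 to 34.01, 34.3 and 35.6 FPKM, and FOSB fell by 1.31, with SW1990 effects of 0.11 and 0.03 that were not called. Their SW1990 control means were only 1.73 and 0.170 FPKM, which left little room for a fall there. SEMA7A, a membrane-bound semaphorin, fell by 1.17 in PSN1 and was at -0.03 ± 0.04 in SW1990, where its control mean was 10.9 FPKM. HYAL4, a member of the hyaluronidase family, fell by 1.34 and CASC19, a long noncoding RNA, fell by 0.90. The SW1990 control means of HYAL4 and CASC19 were 0.257 and 0.034 FPKM, so a fall could hardly be seen there.

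The rises in SW1990 that were not called in PSN1 with tazemetostat alone included OLFM4, AOC1, ALPG, SLURP2, LOXL4 and SPOCK1. In the RMC-6236 libraries, PSN1 rises were called for OLFM4 (0.54), LOXL4 (0.39), ALPG (0.25) and AOC1 (0.23). For all of these genes the difference there was still called and more positive in SW1990. With tazemetostat alone the LOXL4 effect in PSN1 was 0.12 ± 0.05, from arms that did not overlap. OLFM4, a marker of intestinal crypt cells, rose from 0.0748, 0.0717 and 0.0499 to 3.04, 2.88 and 3.198 FPKM in SW1990, and in PSN1 it was listed at 0 in control and reached at most 0.101 FPKM. AOC1, diamine oxidase, rose by 1.48, and the alkaline phosphatase ALPG, a near copy of other placental-type phosphatases, by 1.69. SLURP2, a small Ly6-type protein whose gene overlaps LYNX1, rose by 1.44. All 3 were below 0.05 FPKM in every PSN1 control and tazemetostat library. LOXL4, a lysyl oxidase of collagen crosslinking, rose from 3.89, 4.33 and 3.63 to 12.3, 13.3 and 12.6 FPKM in SW1990, and PSN1 stood at 1.35, 1.51 and 1.38 FPKM in control and 1.59, 1.66 and 1.62 FPKM under tazemetostat. SPOCK1, a matrix proteoglycan, rose from 0.573, 0.549 and 0.466 to 3.03, 2.74 and 2.83 FPKM in SW1990, while PSN1 libraries held 21.03, 20.9 and 20.4 FPKM in control and 19.6, 19.6 and 20.04 FPKM under tazemetostat. COL6A1, a collagen VI chain, and MMP2, a gelatinase, rose by 0.89 and 0.75 in SW1990, with PSN1 effects of -0.02 ± 0.03 and -0.01 ± 0.06. They belong to the 23 mesenchymal genes, of which 9 rose and 3 fell in SW1990 and 4 rose and 7 fell in PSN1.

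Genes of the classical pancreatic and gastric subtype rose in both lines by count. Of 23, 14 rose and 3 fell in SW1990, and 11 rose and 5 fell in PSN1. MUC5AC, a gastric mucin, rose from 1.01, 1.01 and 0.948 to 3.39, 3.41 and 3.48 FPKM in SW1990 and from 46.3, 45.7 and 44.7 to 56.8, 56.8 and 57.9 FPKM in PSN1. CEACAM6, a carcinoembryonic adhesion molecule, rose from 5.64, 4.96 and 5.604 to 24.5, 25.8 and 26.3 FPKM in SW1990 and by 0.40 in PSN1, where no library passed 0.5 FPKM. Its called difference of -1.66 ± 0.07 became -0.22 with a pseudocount of 0.1 and was then not called (adjusted p = 0.271), so the size of a difference set against so low a level rests on the pseudocount.

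The SW1990-specific falls named here were TP63, SOX15, BARX2, NRG1, KISS1 and SFTA1P. TP63, the p63 factor of basal cells, fell from 6.796, 7.42 and 7.53 to 2.77, 2.59 and 2.55 FPKM in SW1990 and did not exceed 0.1 FPKM in PSN1. SOX15 fell by 1.33 and the homeobox factor BARX2 by 1.05. NRG1, neuregulin, a ligand of ERBB receptors, fell from 10.7, 12.05 and 11.9 to 3.696, 3.45 and 3.65 FPKM. KISS1, the kisspeptin precursor, fell by 1.12 and the transcribed pseudogene SFTA1P by 1.09. None of these 6 passed 0.1 FPKM in any PSN1 control or tazemetostat library.

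Developmental regulators, known PRC2 targets in many tissues, rose more often than they fell in PSN1 with tazemetostat alone. Of 118 listed transcription factors 53 reached the expression floor in any arm, and 29 of these rose and 2 fell in PSN1 while 12 rose and 10 fell in SW1990. Since a gene could reach the floor through the arm in which it rose, these shares describe the tested genes only. On RMC-6236, where 46 were tested, 19 rose and 13 fell in PSN1 and 17 rose and 7 fell in SW1990, and 19 differences were more positive in PSN1 and 17 in SW1990. Over all 14394 genes tested there, 3069 rose and 3384 fell in PSN1, and 4316 rose and 2387 fell in SW1990. SOX8 went from 0.187, 0.132 and 0.09701 to 1.69, 1.65 and 1.81 FPKM in PSN1 and was at 0 in all SW1990 libraries. SOX7 was opposite, rising by 0.86 in PSN1 and falling by 0.37 from a control mean of 34.6 FPKM in SW1990. HOX genes, which set body-axis identity, gave fewer calls. Of 39 listed, 21 were tested, 7 rose and 2 fell in PSN1, and 3 rose in SW1990. The called differences were 5 more positive in PSN1 and 2 in SW1990. The same limit from the expression floor holds for these counts. On RMC-6236, where 20 were tested, 4 rose and 7 fell in PSN1 and 3 rose and 1 fell in SW1990. There 3 differences were more positive in PSN1 and 6 in SW1990. HOXC8 rose by 0.63 in PSN1 and was at -0.02 ± 0.08 in SW1990, and HOXB3 fell by 0.36 and rose by 0.25. The imprinted RNA H19 fell from 1226, 1222 and 1251 to 579, 566 and 570 FPKM in PSN1. In SW1990 it rose slightly, from 19.1, 18.4 and 17.999 to 20.6, 21.01 and 20.03 FPKM.

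**Figure D4:**
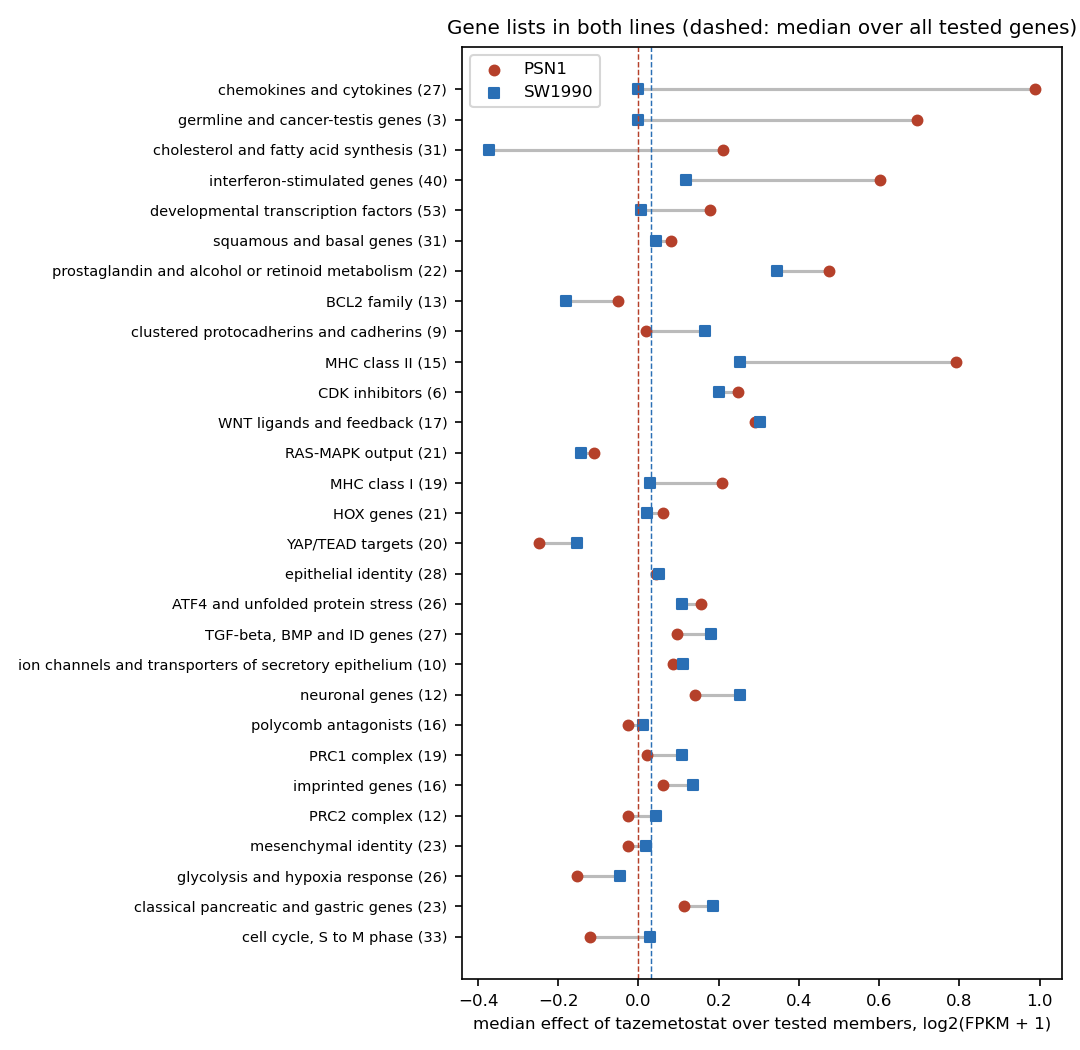
Median tazemetostat effect over the tested members of 29 gene lists (number tested in parentheses) in PSN1 (red circles) and SW1990 (blue squares), in log2(FPKM + 1), ordered by the median of the members' differences. The dashed lines mark the medians over all 13557 genes, -0.002 in PSN1 and 0.032 in SW1990. Chemokines and cytokines stand farthest apart, and cholesterol and fatty acid synthesis lies on opposite sides of 0.

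Some line-specific genes were near or at 0 in the line without the change. Of the 908 PSN1-specific rises, 265 were below 1 FPKM in all 6 SW1990 libraries, and of the 811 PSN1-specific falls 95 were. Of the 1094 SW1990-specific rises, 193 were below 1 FPKM in all 6 PSN1 libraries, and of the 621 falls 145 were. The remaining genes of each class, such as VGF, SPOCK1, SEMA7A and COL6A1, reached 1 FPKM in at least 1 library of the line in which no change was called. FPKM keep no read counts, so the depth behind values near 0 is unknown, and a change below what they resolve would not be seen.

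The differences between the lines were then set beside those in the libraries given RMC-6236, which had no part in placing genes in classes. There the tazemetostat effect was the combination minus RMC-6236 alone, with 3 libraries an arm and 14394 genes tested. Over all of these the difference was more positive in PSN1 for 18.1% and more positive in SW1990 for 27.3%. Of the same genes, 3069 rose and 3384 fell in PSN1, and 4316 rose and 2387 fell in SW1990. List counts on RMC-6236 are to be read against these. Of 305 tested genes that rose in PSN1 and fell in SW1990 with tazemetostat alone, 231 had a called difference of the same sign and 11 of the opposite sign, with a median of 0.444 log2 units. Of 462 with the reverse pattern, 360 had the same sign and 5 the opposite, with a median of -0.427. For the line-specific classes the same sign was called in 503 of 848 PSN1 rises, 396 of 790 PSN1 falls, 696 of 1074 SW1990 rises and 343 of 595 SW1990 falls.

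**Figure D5:**
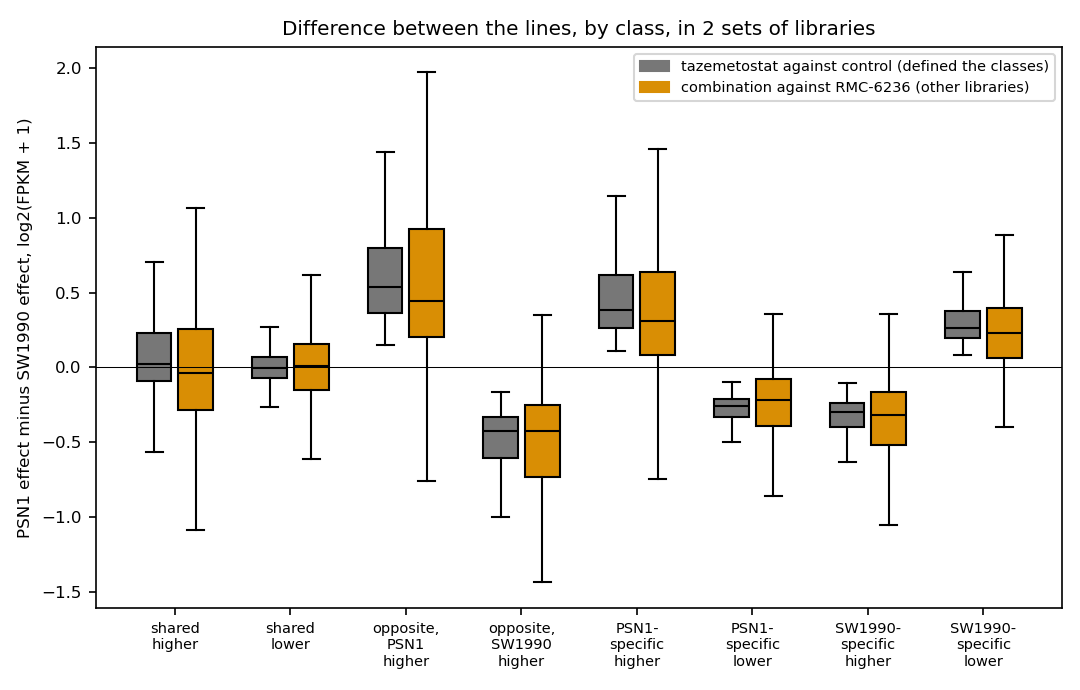
Difference between the lines (PSN1 effect minus SW1990 effect, log2(FPKM + 1)) for the genes of each class in the libraries that defined the classes (grey) and in the RMC-6236 libraries (orange). Boxes span the middle quartiles with the median as a line, and whiskers reach the farthest gene within 1.5 times the box height. The orange medians of the opposite classes, 0.444 and -0.427, have the sign of the grey ones.

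Cholesterol and fatty acid synthesis kept its contrast on RMC-6236, with 30 of 31 differences called, all more positive in PSN1, and medians of 0.341 in PSN1 and -0.572 in SW1990. SQLE had effects of 0.57 in PSN1 and -0.94 ± 0.06 in SW1990. Among 26 chemokines and cytokines, 21 differences were more positive in PSN1 and 4 in SW1990. CXCL1 rose in both lines there, by 2.69 and 0.90, and CCL2 by 3.67 in PSN1 with 0.05 in SW1990. MHC class II medians were 1.38 and 0.623, with CIITA effects of 0.75 and 0.64.

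Interferon-stimulated genes rose in both lines on RMC-6236. Of 40, 35 rose in PSN1 and 38 in SW1990, with medians of 0.630 and 0.678, and the called differences were 9 more positive in PSN1 and 11 in SW1990. RSAD2 rose by 1.92 and 1.86, and MX1 by 1.21 and 1.22. Of the 6 inhibitors of cyclin-dependent kinases, 0 rose and 5 fell in PSN1 there, and 2 rose and 1 fell in SW1990. CDKN1A and CDKN1C did not repeat their PSN1 rises, at -0.25 ± 0.04 and 0.05. The starting levels differed, with PSN1 means on RMC-6236 alone of 14.9 FPKM for CDKN1A and 100 FPKM for CDKN1C. In PSN1 control the means were 3.07 and 2.57 FPKM, and under tazemetostat alone 9.72 and 7.25 FPKM. Genes of S to M phase fell in both lines, 29 of 32 in PSN1 and 23 in SW1990, MCM6 by 0.33 and 0.68. The MCM6 difference was 0.35 ± 0.10 there, called with the sign opposite to the -0.63 ± 0.05 without RMC-6236. H19 fell by 1.87 in PSN1 and by 0.17 in SW1990. The change of these differences between the backgrounds with and without RMC-6236 was not tested.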

How the data were processed

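RNA was extracted with RNAiso Plus and made into stranded mRNA libraries, per the labels' protocols. The submitters' processing notes name FastQC 0.11.2, STAR 2.5.3a, StringTie 1.3.1c and the human build hg38, and whether strand was used in counting is not given in the sources used here, so antisense or overlapping genes stay uncertain. The authors deposited FPKM values, with a separate table for each cell line, so the text compares differences within tables. Low FPKM values showed no whole-read steps and the depth per library is unknown. Means and SD are of FPKM. Samples were grouped by their labels, and 0 columns were left unmapped.

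Values were taken as log2(FPKM + 1). Genes with a mean of 1 FPKM or more in any of the 4 arms were fitted together over 12 libraries with limma 3.58.1 in R 4.3.3 (trend and robust options, statmod 1.5.0; version 1.17.8 of data.table; figures with matplotlib 3.10.9). Two-sided p-values were adjusted by Benjamini-Hochberg across all genes tested, with a threshold of 0.05. The RMC-6236 libraries were fitted the same way on their own.

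The members, the 29 gene lists and the tests were chosen with earlier results of these data known, and lists are described by counts and medians. Named genes were the 6 shared rises and 6 shared falls largest in the smaller effect, 5 of each opposite sense, 6 of each line-specific class, and up to 4 called members of each list. Class genes also needed an arm mean of at least 3 FPKM and arms that did not overlap. CIITA and CD74 were added after their values were seen. Some genes that the rule names are not reported here. On simulated data drawn for 13557 genes, a change of 0.5 log2 units placed in PSN1 alone gave a called difference in 44 of 50 genes, a change of 1 in 50 of 50, and 2 of 13357 unchanged genes were called. Changes were placed only in genes above a set level in both lines, with independent normal noise. They were also placed in far fewer genes than were called in the data. These rates therefore do not cover genes near 0 in 1 line. Alternatives were another pseudocount (0.1), no filter or a floor of 5 FPKM, rescaled libraries, mitochondrial genes left out, other model options, a replicate block and leaving out each library. Promoter sequence was not used here, and the mouse tables were not analysed here.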

Additional observations from a re-analysis of the deposited data

Results flagged for a closer look

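Of the 92 genes named above, 83 had a tazemetostat effect that differed between PSN1 and SW1990 by a test of the difference itself (limma, Benjamini-Hochberg adjusted p under 0.05 over 13557 genes). Values are the PSN1 effect minus the SW1990 effect in log2(FPKM + 1), so a positive value means a more positive effect in PSN1. Most of these genes were named because of their class or effect, so the values describe them and are no separate evidence. Arms of 3 libraries were not tested for outlying samples.

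Among polycomb genes, the difference in log2 units was positive for EPOP (0.37) and PHF19 (0.30). In the same group it was negative for BMI1 (-0.81), CBX2 (-0.53), SUZ12 (-0.47), EZH2 (-0.46) and CBX8 (-0.45). Among antigen presentation and interferon genes, the difference in log2 units was positive for RSAD2 (1.23), MX1 (0.81), CD74 (0.38) and HLA-B (0.22). In the same group it was negative for HLA-DRB1 (-1.66) and HLA-DRA (-1.53). Among chemokines and other secreted immune proteins, the difference in log2 units was positive for CXCL5 (3.14), CXCL1 (2.85), CCL2 (2.70), CXCL3 (2.57), LYZ (2.44), CXCL6 (2.36) and PTX3 (1.26). In the same group it was negative for CSF1 (-1.32). Among sterol genes, the difference in log2 units was positive for INSIG1 (1.04), HMGCS1 (0.89) and SQLE (0.86). Among matrix, protease and adhesion genes, the difference in log2 units was positive for MMP1 (2.01), PKP2 (1.48), ICAM1 (1.37), NEO1 (1.19) and VCAN (0.65). It was negative there for PRSS2 (-2.28), HYAL4 (-1.49), SPOCK1 (-1.41), LOXL4 (-1.36), FN1 (-1.35), EDIL3 (-1.28), COL6A1 (-0.91), COL3A1 (-0.81) and MMP2 (-0.75).

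Among growth signalling and immediate-early genes, the difference in log2 units was positive for BMP7 (2.34), FST (1.69), NRG1 (1.45), NUAK2 (1.36), IER3 (1.04), AXIN2 (1.02) and WNT4 (0.80). It was negative there for FOSB (-1.33), FOS (-1.31), SEMA7A (-1.14), EGR1 (-0.81), PTHLH (-0.34) and DUSP1 (-0.33). Among cell cycle genes, the difference in log2 units was positive for CDKN1A (1.05) and CDKN1C (0.83). It was negative there for MCM6 (-0.63), E2F1 (-0.49) and CDKN2B (-0.27). Among transcription factors of development and epithelium, the difference in log2 units was positive for SOX8 (1.26), SOX15 (1.25), SOX7 (1.23), TP63 (1.22), EHF (1.22), BARX2 (1.12), PRDM8 (1.01) and HOXC8 (0.65). It was negative there for HOXB3 (-0.61). Among squamous, gastric and gut epithelial genes, the difference in log2 units was positive for SERPINB2 (2.27), S100A9 (2.16) and PI3 (1.62). It was negative there for OLFM4 (-1.82), ALPG (-1.68), CEACAM6 (-1.66), AOC1 (-1.46), SLURP2 (-1.44) and MUC5AC (-0.84). Among the remaining genes, the difference in log2 units was positive for VGF (2.38), CRABP1 (1.48), KISS1 (1.12) and SFTA1P (1.09). It was negative there for AKR1B10 (-1.91), CA9 (-1.52), H19 (-1.25), CASC19 (-0.87) and CALB2 (-0.53).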

How the results depend on the processing

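Counts of called genes and of classes stayed within 1.5 times of those reported under every alternative run, except where the filter on low values moved. With a floor of 5 FPKM, which tests fewer genes, 1761 genes rose in PSN1 and 2208 in SW1990, 1874 and 2803 on top of RMC-6236, and the classes held 785 shared rises, 488 PSN1-specific rises and 700 SW1990-specific rises. That floor also left MHC class II rises at 8 in PSN1 and 7 in SW1990 and developmental transcription factor rises in PSN1 at 17. With no filter there were 1381 PSN1-specific rises. Class membership moved more than the counts. Without PSN1 tazemetostat replicate 1, 567 of 811 PSN1-specific falls kept their class, as did 336 of 465 opposite genes higher in SW1990. Of the shared rises, 1226 of 1374 did. With a replicate block these were 609, 345 and 1175, and with no filter 555, 320 and 1084. Leaving out each library in turn gave 2166 to 2449 differences more positive in PSN1 and 2328 to 2870 more positive in SW1990. Rescaling by the median ratio moved the share of called SW1990 changes that were rises from 62.0% to 53.5%, and the share of called differences more positive in PSN1 from 45.9% to 53.8%, while no median over all genes moved by 0.1 log2 units. Of 4825 values of named genes under alternatives, 4808 kept their direction and call, 17 lost the call and 0 reversed. Deviations from the arm mean correlated between same-numbered control and tazemetostat libraries at 0.31, 0.3 and -0.025 in PSN1 and from -0.383 to -0.262 in SW1990. PSN1 control replicates 1 and 2 matched their own number best, while PSN1 replicate 3 and the SW1990 controls did not. Deviations within an arm sum to 0 and are not independent, so this cannot settle whether the numbers pair samples. The main fit used no pairing. The fit with a replicate block called 2163 and 2337 differences. Depth is unknown, so values near 0 FPKM carry no stated limit.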

Other observations

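Other gene groups gave calls in both lines, and some counts were near the shares over all genes. Those shares were 22.5% rising and 20.1% falling in PSN1, and 26.8% and 16.4% in SW1990. Of 26 genes of the ATF4 and unfolded protein stress response, 14 rose and 6 fell in PSN1 and 13 rose and 6 fell in SW1990, and 9 rose in both. Of 27 TGF-beta, BMP and ID genes, 13 rose and 5 fell in PSN1 and 14 rose and 4 fell in SW1990, 8 rose in both and 5 had opposite calls. Among 28 epithelial identity genes 13 rose and 4 fell in PSN1, against 7 and 3 in SW1990. Of these 28, 11 were below 1 FPKM in all PSN1 libraries and 0 were in all SW1990 libraries. Among 13 genes of the BCL2 family, which set the threshold for cell death, 5 rose and 4 fell in PSN1 and 3 rose and 6 fell in SW1990, with 3 shared falls.

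In the germline, protocadherin and neuronal groups, most listed members stayed below the expression floor. Of 42 germline and cancer-testis genes, 3 reached a mean of 1 FPKM in any arm, MAGEA3, MAGEA6 and MAGEA12, and these 3 rose in PSN1. All 3 were listed at 0 in all 6 SW1990 libraries, so no call was possible there. They are near copies of each other, so how reads were split among them is uncertain. Of 33 clustered protocadherins and cadherins, 9 reached it, with 3 rises in PSN1 and 4 rises and 2 falls in SW1990. Of 40 neuronal genes, 12 reached it, with 5 rises and 3 falls in PSN1, 7 rises and 1 fall in SW1990, and 4 opposite calls. Of 30 imprinted genes listed, 29 were in the human tables and 16 reached the floor. Of these 16, 6 rose and 4 fell in PSN1 and 9 rose and 2 fell in SW1990.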
